A study of Mus musculus with 4 samples.

Results

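The replication-dependent histone genes were described in 4 neural stem cell (NSC) lines of the mouse, each sequenced as 1 single-cell library. Members were all genes whose symbol begins with Hist1h, Hist2h, Hist3h or Hist4h, which gave 67 genes of 27645 in the tables. They comprised 6 genes of the linker histone H1, 18 of H2A, 18 of H2B, 12 of H3 and 13 of H4. All 67 were protein-coding in the gene annotation, and the symbol rule also took in Hist1h1t, a linker histone of the testis. The lines came from epiblast stem cells of strain 129/Sv and all grew with EGF and FGF2 at 10 ng/ml each. XN4 and XN1 were derived with 10 µM XAV939, a tankyrase inhibitor that lowers Wnt signaling. The XAV939 came from different suppliers, and that used for XN1 formed precipitates according to the results and supplement of the study. KN1 had no added Wnt compound, and CN4 had 2 µM CHIR99021, a GSK3 inhibitor that raises Wnt signaling. Cells were taken in a growing phase and kept in CellCover, a preserving reagent, and polyadenylated RNA was captured on beads. With 1 library per line, no test between lines could be made, and intervals below are 95% intervals for counting error only.

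Replication-dependent histone genes supply the H1, H2A, H2B, H3 and H4 proteins that package newly copied DNA, and their mRNAs accumulate in S phase. Most of these mRNAs end in a conserved stem-loop, bound by the stem-loop binding protein Slbp, instead of a poly(A) tail. Some members can also make polyadenylated mRNA from a poly(A) signal further downstream, and such mRNA has been described in cells that have left the cell cycle. Replication-independent histone genes such as H3f3a and H3f3b make ordinary polyadenylated mRNA throughout the cell cycle.

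The stem-loop was found in the annotated sequence after the stop codon in 46 of the 67 members. The same motif lay after the stop codon in 62 of 21924 coding genes, or 0.283%. It began 21 to 58 bases after the stop codon, with a median of 31. The commonest of 8 distinct stem-loops was carried by 26 members of H1, H2A, H2B and H3. All 12 H4 members with a stem-loop had another stem, ending in GGCC or GACC, whereas the 34 others ended in AGCC. The sites of 6 of the members described below are shown with the 16 bases of the stem-loop in capitals, because the members divided into different patterns although the element was nearly identical.
Hist1h1e: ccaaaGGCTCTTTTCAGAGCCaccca
Hist1h2ae: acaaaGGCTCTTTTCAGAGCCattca
Hist1h1c: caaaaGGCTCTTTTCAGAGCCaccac
Hist3h2a: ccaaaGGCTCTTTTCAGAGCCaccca
Hist2h3c1: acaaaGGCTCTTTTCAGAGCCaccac
Hist1h4i: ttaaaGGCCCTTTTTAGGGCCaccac

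What followed the stem-loop differed more than the stem-loop itself. The annotated transcript went on for 840 bases in Hist1h1c, with 2 poly(A) signals (AATAAA or ATTAAA), for 1643 bases in Hist3h2a, with 2, and for 1167 bases in Hist2h3c1, with 1. It went on for 1153 bases in Hist1h1e without such a signal, and for 151 bases in Hist1h2ae with 1. In 15 members, Hist1h1b among them, the annotated transcript stopped at most 2 bases after the stop codon, so that the sequence there was not seen. In all, 22 members had a poly(A) signal after the stop codon and 45 had none in the annotated sequence.

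Of the 61 members with a promoter sequence (RefSeq, GRCm38.p6, 250 bases before to 50 after the start), 35 held TATAAA on either strand, or 57.4%, against 14.2% of 27025 promoters of the same length. CCAAT on either strand was held by 52, or 85.2%, against 37.9%. The promoters of 2 linker histone genes that behaved differently are shown with these letters in capitals. That of Hist1h1b lies at chr13:21780576-21780875 on the minus strand and holds TATAAA once and CCAAT 3 times. That of Hist1h1c lies at chr13:23738557-23738856 on the plus strand and holds CCAAT once and no exact TATAAA. It does hold tatatata, which the search for exact TATAAA did not count.
Hist1h1b: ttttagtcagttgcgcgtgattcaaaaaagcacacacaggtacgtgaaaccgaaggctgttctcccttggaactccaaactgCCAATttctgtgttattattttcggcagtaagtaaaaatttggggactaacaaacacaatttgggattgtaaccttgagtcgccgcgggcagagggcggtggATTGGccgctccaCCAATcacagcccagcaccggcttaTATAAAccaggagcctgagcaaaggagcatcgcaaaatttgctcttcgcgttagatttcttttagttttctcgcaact
Hist1h1c: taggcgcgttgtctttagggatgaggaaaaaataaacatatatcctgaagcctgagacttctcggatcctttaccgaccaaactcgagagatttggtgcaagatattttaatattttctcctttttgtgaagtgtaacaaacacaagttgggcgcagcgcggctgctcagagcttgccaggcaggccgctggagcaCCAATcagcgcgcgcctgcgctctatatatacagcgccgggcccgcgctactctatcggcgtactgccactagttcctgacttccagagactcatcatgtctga

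The members lay in 4 clusters (GRCm38). The Hist1 cluster held 54 genes between positions 21715763 and 23934851 of chromosome 13. The Hist2 cluster held 10 genes on chromosome 3, the Hist3 cluster 2 on chromosome 11, and Hist4h4 lay alone on chromosome 6. Members resembled each other closely, and 47 of them had a coding sequence at least 95% identical to that of another member. Reads may therefore have been split between copies, as for Hist2h3c2, 99.8% identical to Hist2h3b. Hist1h1e overlapped Hist1h2be on the same strand, and Hist3h2a overlapped Trim17.

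The normalized tables held 3448 to 3975 cells per line with median totals of 4637 to 7796 reads per cell. The tables of all reads, used here for XN4, XN1 and CN4, held 8741 to 18157 cells. KN1 stood apart with a median of 833 genes per cell against 2257 to 2824 in the other lines, and its genes were captured with a median of 5.43 reads per cell with a read, against 1.31 to 2.22. XN4 went against its label, with connective tissue markers (7 of 7 listed) summing to 9601 RPM, or reads of a gene per 1000000 reads of the table, against 4.54 to 117 in the other lines. Col3a1, a fibrillar collagen, was captured in 97.8% of XN4 cells and the neural transcription factor Sox2 in 0.56%, against 62.2% of XN1, 13.9% of KN1 and 83.9% of CN4 cells. Of 10 neural stem cell markers 7 were listed in XN4, without Sox1, Sox3 and Fabp7, and they summed to 1688 RPM there, against 4009 in XN1, 2362 in KN1 and 8474 in CN4. The part of these properties in the values below was not tested. Pairs of normalized tables shared 14 to 21 cell barcodes.

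Few of the members were captured well. A cell in which a gene had 1 read or more was counted as capturing it. The tables of all reads listed 64 members in XN4, 67 in XN1 and 66 in CN4, and the normalized tables listed 29 in XN4, 26 in CN4, 22 in XN1 and 14 in KN1. At least 1% of cells captured 13 of the 29 members listed in the normalized table of XN4, against 79.1% of all listed genes, 15 of 22 in XN1, against 84.0%, 6 of 14 in KN1, against 73.7%, and 13 of 26 in CN4, against 82.4%. Over all reads it was 14 of 64 in XN4, against 49.1%, 15 of 67 in XN1, against 48.8%, and 15 of 66 in CN4, against 48.3%. Of the members, 18 were captured in the normalized tables in at least 1% of the cells of a line, and 6 in at least 1% of the cells of every line. These 6 were the linker histone genes Hist1h1c, Hist1h1e and Hist1h1b, the H2A gene Hist3h2a, and the H2B genes Hist1h2bc and Hist1h2be. Over all reads the median listed member was captured in 0.189% of XN4 cells, 0.083% of XN1 cells and 0.132% of CN4 cells, while the best captured reached 31.5%, 35.6% and 12.6%. No H3 gene was listed in the normalized table of KN1, where each listed gene had reads in at least 7 cells.

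Capture went with the annotated transcript end. Over all reads the 22 members with a poly(A) signal after the stop codon took 79.2% of member reads in XN4, where 21 of them were listed, 88.5% in XN1 and 66.1% in CN4. Of these, 10, 10 and 11 were captured in at least 1% of cells. Of the listed members without a signal, 4 of 43 in XN4, 5 of 45 in XN1 and 4 of 44 in CN4 reached 1%. Those that did included Hist1h1b, for which almost no sequence after the stop codon was annotated, and Hist1h1e. Over members, the number of bases after the stop codon and the level rose together, with Spearman's rho of 0.420 in XN4 (n = 64 members), 0.502 in XN1 (n = 67) and 0.397 in CN4 (n = 66). These points shared libraries and, for close copies, sequence, and the level was not divided by length. A longer annotated end can by itself collect more reads and hold a poly(A) signal more often. Other genes were not set beside the members here.

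**Figure D1:**
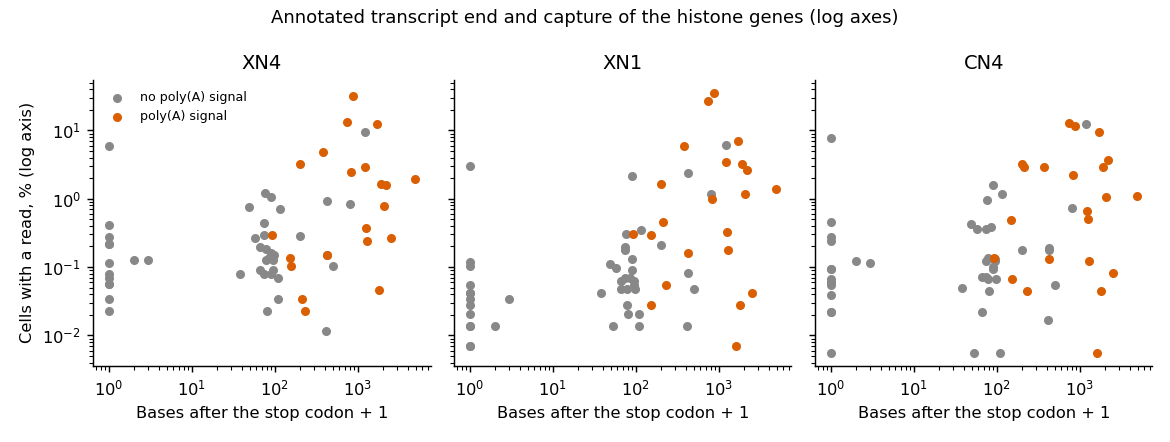
Each point is a member listed in the table of all reads of XN4, XN1 or CN4. The x axis gives the annotated bases after its stop codon plus 1, and the y axis the percent of cells with a read, both on log axes. Orange points are members with a poly(A) signal after the stop codon and grey points are members without, and most points over 1% are orange, with 10 of 14 in XN4, 10 of 15 in XN1 and 11 of 15 in CN4.

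The summed level of the members was 394 RPM in XN1 (385 to 403), 250.2 RPM in XN4 (245 to 255), 159 RPM in CN4 (154 to 164) and 136 RPM in KN1 (131 to 140.1). The intervals of the 4 lines did not overlap, but they take each read as independent and can be too narrow where reads are PCR copies. Over the 13 members listed in all 4 normalized tables, a choice made after the values were seen, the order was the same at 367, 235, 142 and 134 RPM. A read of any member was found in 53.7% of XN1 cells, 38.5% of XN4 cells, 33.8% of CN4 cells and 13.7% of KN1 cells once each cell was thinned to 3200 reads. The order of the lines was therefore XN1, XN4, CN4, KN1 by level and by cells captured, with CN4 and KN1 close in level and far apart in cells.

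Linker histone mRNA took the largest share of member reads in each line, with 60.4% in XN4, 50.1% in KN1, 50.01% in XN1 and 40.8% in CN4. H2B genes followed with 33.6% in XN1, 32.8% in CN4, 29.9% in KN1 and 18.2% in XN4. H2A genes took 17.9% in CN4, 16.2% in KN1, 12.7% in XN4 and 6.40% in XN1. H3 genes took 4.69% in XN1, 3.28% in XN4 and 2.82% in CN4. H4 genes took 3.88% to 5.61%. The core histones, which form the nucleosome in equal amounts as proteins, were thus captured very unequally as mRNA. The libraries captured polyadenylated RNA, so these shares need not be those of total histone mRNA.

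**Figure D2:**
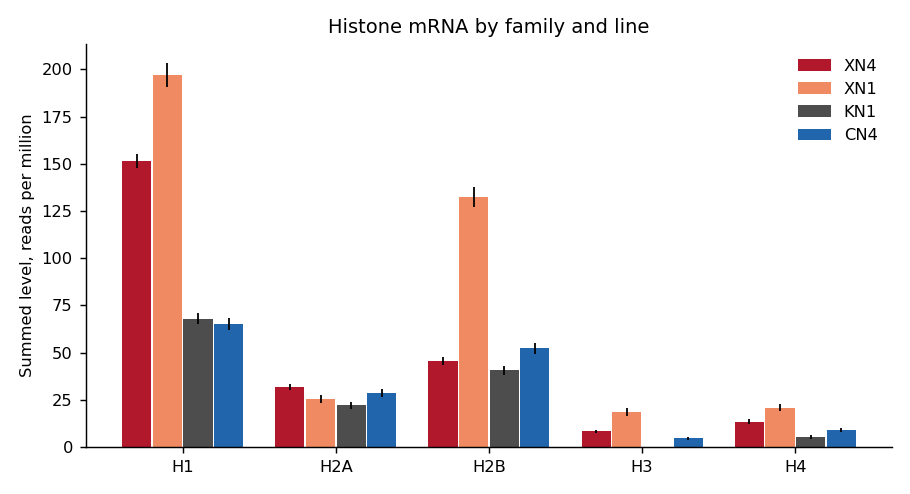
Bars give the summed level of the listed members of each histone family in RPM, with 95% Poisson intervals for counting error, in the normalized table of each line. XN1 was highest in H1 and H2B, and no H3 member was listed in KN1.

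Hist1h1c, which encodes linker histone H1.2, had 169 RPM in XN1, 111 RPM in XN4, 27.9 RPM in CN4 and 11.2 RPM in KN1. Both lines derived with XAV939 lay above the other lines, and Hist1h1c alone gave 44.2% of member reads in XN4 and 42.8% in XN1. Per kilobase of exon it had 108 RPM in XN1 and 70.9 RPM in XN4. The H2B gene Hist1h2bc had 109 RPM in XN1, 37.4 RPM in XN4, 29.3 RPM in CN4 and 9.58 RPM in KN1. It was the leading member in CN4, with 18.4% of member reads. In XN1 it had 94.7 RPM per kilobase of exon, close to Hist1h1c.

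Hist1h1e, encoding H1.4, had 27.2 RPM in KN1, 23.0 RPM in CN4, 21.5 RPM in XN4 and 15.3 RPM in XN1. Its intervals, which take each read as independent and can be too narrow, overlapped between CN4 and XN4 only. Hist1h1e was the leading member in KN1 with 20.1% of member reads. Hist1h1b, encoding H1.5, had 24.5 RPM in KN1, 14.3 RPM in XN4, 11.8 RPM in CN4 and 9.39 RPM in XN1. Hist1h1d, encoding H1.3, stayed between 1.66 RPM in CN4 and 4.97 RPM in KN1. The order of the lines for these 3 linker histone genes was not that of Hist1h1c, and for each the value in KN1 was highest, with an interval that overlapped those of XN1 and XN4 for Hist1h1d. In cells thinned to 3200 reads, however, Hist1h1e was captured in only 2.80% of KN1 cells, against 4.79% in XN4, 4.00% in XN1 and 5.51% in CN4. For Hist1h1b the thinned shares were 2.36% in KN1, 3.22% in XN4, 2.40% in XN1 and 2.85% in CN4. KN1 cells with a read held more reads each, with a mean of 6.36 for Hist1h1e against 1.32 to 2.47 in the other lines.

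Among H2A genes, Hist3h2a had 22.4 RPM in XN4, 18.1 RPM in CN4, 18 RPM in XN1 and 10.1 RPM in KN1, and XN1 and CN4 did not differ beyond their intervals. Hist1h2ae had 5.23 RPM in CN4, 4.41 RPM in XN1, 4.26 RPM in XN4 and 3.81 RPM in KN1, and the intervals of all 4 lines overlapped. Hist1h2ac ranged from 1.32 RPM in XN4 to 4.17 RPM in KN1. Among H2B genes, Hist1h2be had 27.1 RPM in KN1 against 8.93 RPM in XN1, 6.36 RPM in CN4 and 2.99 RPM in XN4. Hist1h2be overlaps Hist1h1e by gene start and end, and shared exons were not examined, so reads there might not be told apart. Both genes had their highest RPM in KN1, where 2 thinned cells held both, 0.730 times the product of their shares. So few cells cannot show whether reads were shared. In thinned cells Hist1h2be was captured in 98 of 3396 KN1 cells, 72 of 3129 XN1 cells and 59 of 3158 CN4 cells. Hist2h2be ranged from 2.79 RPM in XN4 to 6.67 RPM in CN4. Hist1h2bm ranged from 0.818 RPM in XN4 to 5.09 RPM in XN1 and was not listed in KN1.

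Some low members were listed in the normalized tables of some lines only. Genes listed there had reads in at least 3 cells in CN4, 4 in XN1, 5 in XN4 and 7 in KN1. A member that was not listed is therefore not shown to be absent. Hist3h2ba, an H2B gene, had 5.80 RPM in CN4 and 1.14 RPM in XN1 and was not listed in the normalized tables of XN4 and KN1. Over all reads it was captured in 538 CN4 cells, 65 XN1 cells and 3 XN4 cells. The other gene of its cluster, Hist3h2a, was listed in all 4 lines. The H3.2 gene Hist2h3c1 had 9.39 RPM in XN1, 4.38 RPM in XN4 and 1.00 RPM in CN4, and Hist2h3c2 had 5.76 RPM in XN1 and 1.78 RPM in XN4. Hist1h3c and Hist1h3d, in the Hist1 cluster, stayed at or under 2.54 RPM. The H4 gene Hist1h4i had 17.9 RPM in XN1, 8.71 RPM in XN4, 5.4 RPM in CN4 and 2.97 RPM in KN1, whereas Hist1h4d stayed between 2.18 RPM in XN1 and 3.73 RPM in XN4.

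**Figure D3:**
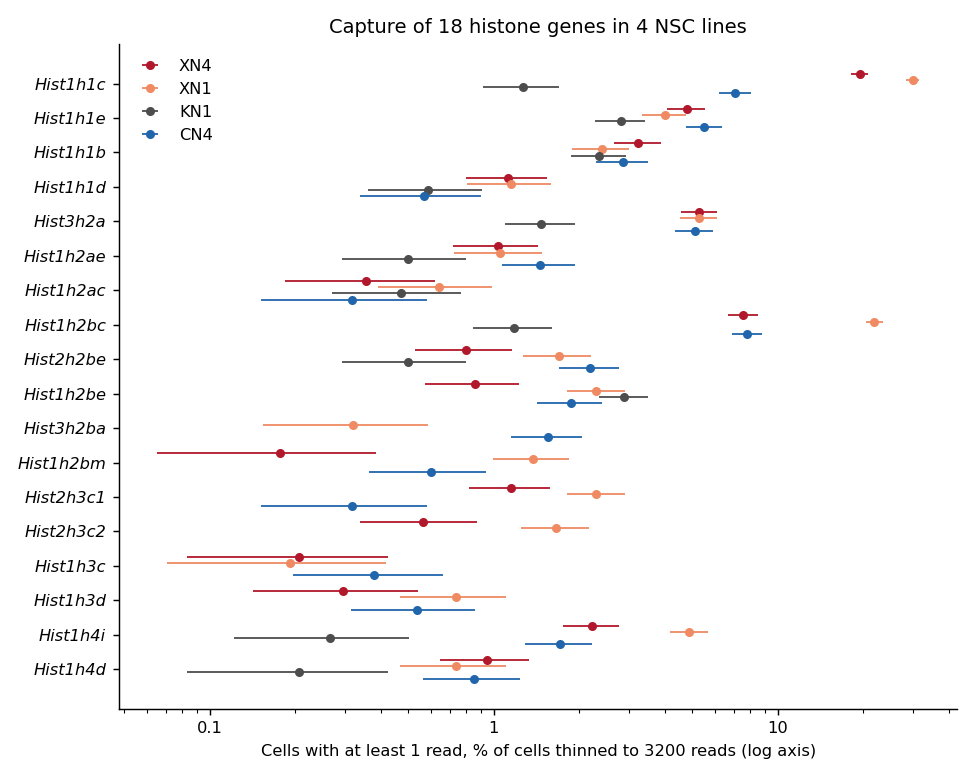
Points give the percent of cells with at least 1 read of each of 18 members, after thinning each cell to 3200 reads, with exact binomial intervals, on a log axis; a member with no point in a line was not listed in that table. Hist1h1c and Hist1h2bc spread widely between the lines, while Hist1h1b lay at 2.36% to 3.22% in all 4.

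Members with a mean level of at least 10 RPM over both lines of a pair were counted past 2-fold, beside the share of all genes past the same limit. Between XN4 and XN1, 0 of 6 members were higher in XN4, against 15.1% of all genes, and 2 were lower (Hist1h2bc and Hist1h4i), against 12.1%. Between XN4 and KN1, 3 of 6 were higher in XN4 (Hist1h1c, Hist1h2bc and Hist3h2a), against 22.3%, and 1 was lower (Hist1h2be), against 19.4%. Between XN4 and CN4, 1 of 5 was higher in XN4 (Hist1h1c), against 15.2%, and 0 were lower, against 13.2%. Hist1h4i and Hist1h2be in every pair in which they are counted, Hist1h2bc in pairs with KN1 and Hist1h1b in XN1 against KN1 lay under 10 RPM in the lower line. They passed the limit through the line where they were high, so that these calls only describe the levels. With so few members a share cannot be set closely against the background. Hist1h1c in XN4 was 9.86-fold that in KN1, 3.96-fold that in CN4 and 0.656-fold that in XN1.

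Between XN1 and KN1, 3 of 7 were higher in XN1, against 23% of all genes, and 2 were lower (Hist1h1b and Hist1h2be), against 22.8%. The higher ones were Hist1h1c, Hist1h2bc and Hist1h4i, at 15.0-fold, 11.4-fold and 6.0-fold. Between XN1 and CN4, 3 of 6 were higher in XN1, against 7.25% of all genes, and 0 were lower, against 6.3%. These were again Hist1h1c, Hist1h2bc and Hist1h4i, at 6.04-fold, 3.74-fold and 3.30-fold. Between KN1 and CN4, 2 of 6 were higher in KN1 (Hist1h1b and Hist1h2be), against 19%, and 2 were lower (Hist1h1c and Hist1h2bc), against 22%. By the share of thinned cells, 0 of the same 6 members were 2-fold higher in KN1 than in CN4, where Hist1h1b lay lower in KN1. Of the same 7 members of XN1 and KN1, 0 were 2-fold lower in XN1. The share of all genes was not taken by this measure. No pair of lines had a replicate, and the folds describe these libraries.

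Members were next compared within each line between cells with and without a read of Mki67 or Top2a. Mki67 encodes the Ki-67 protein of cycling cells, and Top2a encodes a topoisomerase that is made mostly in S, G2 and M phase. After thinning, a read of either gene was found in 31.0% of 3384 XN4 cells, 34.8% of 3129 XN1 cells, 48.3% of 3396 KN1 cells and 65.0% of 3158 CN4 cells. Cells with neither include dividing cells in which both genes were missed at this depth. Cells with either gene held slightly more genes at equal reads, with medians of 1718 against 1612 in XN4, 1850.0 against 1787 in XN1, 843 against 706 in KN1 and 1858 against 1821 in CN4.

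The members did not move as 1 group. Hist1h1b was captured in 9.14% of XN4 cells with Mki67 or Top2a and in 0.557% of cells with neither, a ratio of 16.4 (9.24 to 29.2). In XN1 the shares were 6.25% and 0.343%, a ratio of 18.2 (8.40 to 39.5). In CN4 they were 3.99% and 0.724%, a ratio of 5.52 (2.68 to 11.4), and in KN1 3.60% and 1.20%, a ratio of 3.005 (1.83 to 4.92). Hist1h1b had the highest ratio of any tested member in each of the 4 lines. Within strata of genes captured its ratio was 14.8 in XN4, 8.86 in XN1, 4.68 in CN4 and 2.496 in KN1.

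Hist1h1e was also captured more often with Mki67 or Top2a in all 4 lines. Its ratio was 3.99 in XN4 (2.92 to 5.45), 4.14 in XN1 (2.85 to 5.996), 3.21 in CN4 (2.11 to 4.87) and 2.56 in KN1 (1.66 to 3.96). Within strata it was 4.099, 2.97, 2.95 and 1.98, so that in KN1 it was no longer past 2-fold. The H2A gene Hist1h2ae had a ratio of 6.97 in XN1, 4.85 in XN4 and 2.999 in CN4, and in KN1 it was captured in under 1% of cells. Hist1h1d had a ratio of 4.82 in XN4 (2.44 to 9.51) and 1.88 in XN1 (0.980 to 3.59). Of these 4 genes 3 encode linker histones, and Hist1h1d in XN1 was the exception, with an interval that held 1.

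Hist1h1c, the best captured member in XN4 and XN1, moved little or the other way. It was captured in 17.1% of XN4 cells with Mki67 or Top2a and 20.5% of those with neither, a ratio of 0.837 (0.717 to 0.978). In XN1 the shares were 20.6% and 34.9%, a ratio of 0.590 (0.518 to 0.673), and the ratios in KN1 and CN4 were 0.930 and 0.932, with intervals that held 1. For Hist1h2bc the ratio was lowest in XN1 at 0.529, followed by XN4 at 0.710, CN4 at 0.723 and KN1 at 0.875, and only the KN1 interval held 1. Without thinning the ratios of Hist1h1c and Hist1h2bc in XN4 were 1.14 and 1.07. Hist3h2a had ratios of 0.703 to 0.840 over the 4 lines.

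The H3.2 genes of the Hist2 cluster had the lowest ratios. Hist2h3c1 was captured in 0.827% of XN1 cells with Mki67 or Top2a and 3.09% of cells with neither, a ratio of 0.268 (0.134 to 0.537), and in XN4 the ratio was 0.327 (0.128 to 0.833). Hist2h3c2 had a ratio of 0.292 in XN1 (0.132 to 0.645). The H4 gene Hist1h4i had a ratio of 0.402 in XN1 (0.267 to 0.605), and of 0.864 in XN4 and 0.783 in CN4 with intervals that held 1. The intervals of Hist1h2be, Hist2h2be, Hist1h2bm and Hist3h2ba held 1 in each line where they passed the filter, with ratios of 0.661 to 1.13.

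**Figure D4:**
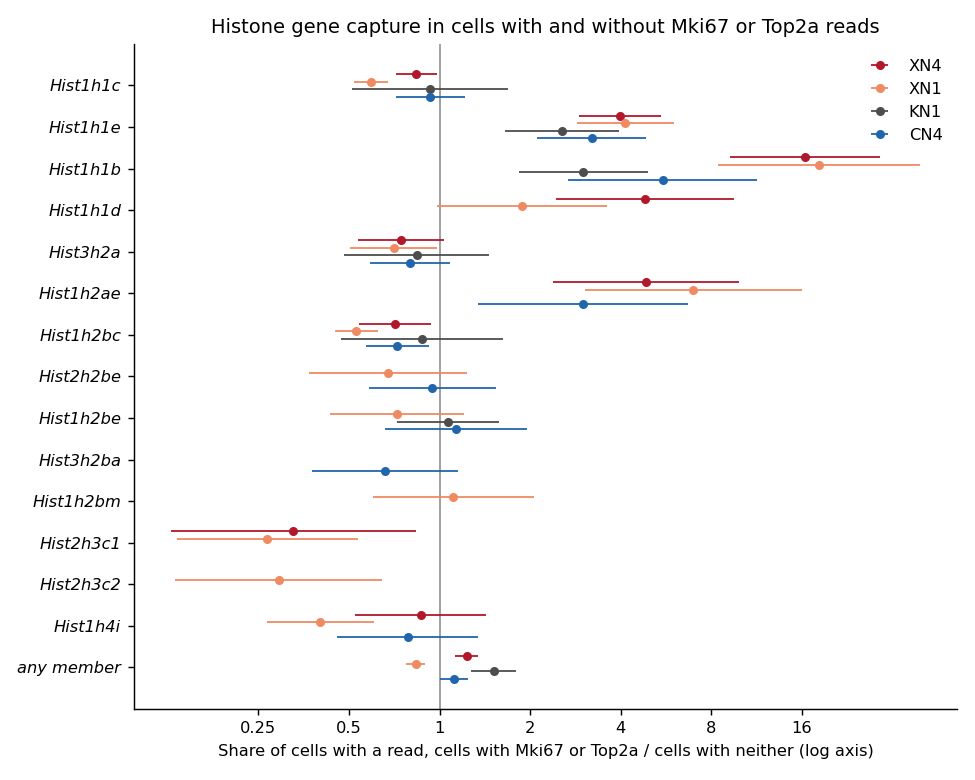
Points give, on a log axis, the share of cells with a read of the gene among cells with Mki67 or Top2a divided by the share among cells with neither, with 95% intervals for counting error, for members captured in at least 1% of the thinned cells of a line. Hist1h1b, Hist1h1e and Hist1h2ae lie to the right of 1 in every line shown, Hist2h3c1 and Hist2h3c2 to the left, and any member lies at 0.832 in XN1 and at 1.118 to 1.51 in the other lines.

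Of the members captured in at least 1% of thinned cells, 4 of 9 in XN4 were at least 2-fold higher with Mki67 or Top2a, against 4.42% of all genes, and 1 was at least 2-fold lower, against 1.71%. In XN1, 3 of 13 were higher, against 4.69%, and 3 were lower, against 1.59%. In KN1, 2 of 6 were higher, against 4.1%, and 0 lower, against 0.238%. In CN4, 3 of 10 were higher, against 3.6%, and 0 lower, against 0.887%. The median ratio over these members was nevertheless at or below 1, at 0.703 in XN1, 0.864 in XN4, 0.940 in CN4 and 0.9997 in KN1. Over all genes it was 1.01, 1.02, 0.990 and 1.19 in the same order. The filter used both classes of cells together, and many called members passed it through the class where they were high. In cells with neither, Hist1h1b, Hist1h1d and Hist1h2ae in XN4 lay at 0.557%, 0.514% and 0.471%. Hist1h1b and Hist1h2ae lay at 0.343% each in XN1, and under 1% in CN4. Among the lower ones, Hist2h3c1 in XN4 and XN1 and Hist2h3c2 in XN1 lay under 1% of cells with Mki67 or Top2a. These calls only describe the shares.

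Where cells were divided by both genes, Hist1h1b was captured most often in cells with both. In XN4 it was captured in 0.557% of cells with neither, 1.48% of cells with Mki67 only, 3.17% with Top2a only and 16.7% of 496 cells with both. In XN1 the shares were 0.343%, 0 of 165 cells, 1.82% and 10.5% of 593 cells. A count of 0 of 165 cells allows a share of up to 1.82% by the limit of 3 counts used for zeros, and 2.21% by the exact interval. In KN1 they were 1.20%, 1.90%, 3.99% and 4.38%, and in CN4 0.724%, 0.923%, 3.12% and 5.13%, and in these lines the intervals of cells with Top2a only and with both overlapped. Hist1h1e in XN4 went from 2.49% with neither to 16.1% with both. Hist2h3c1 was rare in cells with both but did not fall steadily over the classes, with 34 of 2334 XN4 cells with neither, 0 of 270 with Mki67 only, 5 of 284 with Top2a only and 0 of 496 with both, which allows up to 0.605% by 3 counts and 0.741% by the exact interval, and 63 of 2041, 5 of 165, 3 of 330 and 1 of 593 XN1 cells. Hist1h2bc in XN1 went from 26.2% with neither to 9.27% with both.

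The division among the members went with the annotated transcript end. In the tables of all reads, thinned to 3600 reads, a read of any member without a poly(A) signal was found 4.34 times as often with Mki67 or Top2a in XN4 (3.74 to 5.04), 2.10 times in XN1 (1.89 to 2.33) and 2.98 times in CN4 (2.64 to 3.35). For members with a signal the ratios were 0.982, 0.677 and 0.862. The 45 members without a signal include the 15 in which almost no sequence after the stop codon was annotated, Hist1h1b among them. Set apart after the values were seen, these 15 had ratios of 14.5 in XN4, 13.9 in XN1 and 5.61 in CN4, and the other 30 had 3.19 (2.69 to 3.79), 1.63 (1.45 to 1.83) and 2.56 (2.24 to 2.93). In the normalized tables the ratio without a signal was 2.44 in XN1, 4.404 in XN4, 2.65 in CN4 and 2.90 in KN1, against 0.679, 0.943, 0.892 and 1.08 with one. Much of this rested on Hist1h1b and Hist1h1e. Without these 2, a choice made after the values were seen, the ratios of members without a signal in the tables of all reads were 3.31 in XN4, 2.08 in CN4 and 1.00 in XN1 (0.853 to 1.17). In the normalized tables they were 0.696 in XN1 (0.470 to 1.03), 1.48 in CN4 (0.933 to 2.35) and 2.92 in XN4 (1.93 to 4.43). Of these lines, only XN4 had an interval above 1 in both kinds of table. In KN1, with a normalized table only, the ratio was 11.8 (1.52 to 91.0), from 11 cells with Mki67 or Top2a and 1 cell with neither. Hist1h2ae and Hist1h1d, with a signal, and Hist2h3c2, without, had ratios on the side of the other set in XN4 or XN1. Ratios of members with a signal were not taken without Hist1h1c and Hist1h2bc, the best captured members of XN4 and XN1.

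A similar division was seen by promoter. Over all reads, members with TATAAA had ratios of 3.62 in XN4, 1.92 in XN1 and 2.19 in CN4, and members without it 0.869, 0.623 and 0.880. Both groupings share Hist1h1b and Hist1h1e on 1 side and Hist1h1c on the other, although its promoter holds tatatata and lacks only the exact TATAAA. Hist1h2ae and Hist1h1d hold TATAAA as well as a poly(A) signal, and Hist2h3c2 holds neither, so that these 3 lay with their promoter group, whereas Hist1h4i, with TATAAA and a signal, did not. These members were too few to separate the groupings, and no test was made.

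Over all reads, the many members with few reads were together captured more often with Mki67 or Top2a. In both kinds of table, 48 members were captured in under 1% of cells of every line. A read of any of them was found in 4.63% of XN4 cells with Mki67 or Top2a and 1.08% of cells with neither, a ratio of 4.28 (3.17 to 5.78). The ratio was 2.13 in XN1 (1.67 to 2.71) and 2.55 in CN4 (1.99 to 3.27). For a wider comparison, captures were summed over all genes found in under 1% of thinned cells of the line. For the 57, 56 and 56 members among them, captures per cell were 3.13 times as many with Mki67 or Top2a in XN4, 2.12 times in XN1 and 1.86 times in CN4. For all other such genes the values were 0.996, 0.983 and 0.875. The members in these sums include Hist1h2ae in XN4 and XN1 and Hist1h1d in all 3 lines. In the normalized tables, which list fewer members, the values were 1.06 in XN1, 1.92 in XN4, 1.44 in CN4 and 1.84 in KN1 for rare members, against 0.962, 0.968, 0.881 and 1.11 for other rare genes. The normalized table of XN1 listed 3 of the 48 members, with a ratio of 0.750 (0.292 to 1.93).

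By cluster, the Hist1 genes together had ratios of 1.40 in XN4, 0.849 in XN1 and 1.37 in CN4 in the tables of all reads, the Hist2 genes 0.710, 0.444 and 0.823, and the Hist3 genes 0.722, 0.545 and 0.578. The intervals of Hist2 in XN4 and CN4 held 1, whereas in the normalized table of XN4 Hist2 had 0.401 (0.223 to 0.721). By family, H1 had 1.34, 0.834 and 1.81, H2A had 1.36, 1.07 and 0.996, and H2B had 1.10, 0.564 and 0.778. H3 had 1.10, 0.484 and 1.116, and H4 had 1.58, 0.933 and 1.51, although Hist1h4i alone had 1.19, 0.674 and 0.927. In XN1 the intervals of H1, H2B and H3 lay below 1, and those of H2A (0.927 to 1.23) and H4 (0.793 to 1.10) held 1. In the normalized tables the H4 ratio was 0.580 in XN1 (0.416 to 0.810), 1.03 in XN4 (0.696 to 1.51) and 1.14 in CN4 (0.718 to 1.80), and in XN4 H2B had 0.820 and H3 0.754, with intervals that held 1.

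Cells with a read of each member were then compared for the number of captured genes of 2 lists, 31 genes of S phase and 35 genes of G2 and M phase, which held neither Mki67 nor Top2a. XN4 cells with Hist1h1b held a mean of 6.93 S phase genes and 13.1 G2-M genes, against 2.15 and 3.36 in cells without. In XN1 they held 10.2 and 14.6 against 2.93 and 4.48, in CN4 8.29 and 13.4 against 5.73 and 8.16, and in KN1 2.75 and 5.26 against 1.93 and 3.403. Hist1h1b cells thus held more genes of both lists in each line, but they also held more genes of any kind. The medians were 908 against 762 in KN1 and 1735 against 1646 in XN4. They were 1896 against 1806 in XN1 and 1868.5 against 1845 in CN4. Hist1h2ae cells also held more genes of both lists, with 9.0 and 14.5 in XN1, 5.31 and 10.7 in XN4, and 9.24 and 12.1 in CN4.

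Cells with Hist2h3c2 stood at the other end, with 1.02 S phase genes and 0.788 G2-M genes in XN1, against 3.14 and 4.79 in cells without. Cells with Hist2h3c1 held 1.43 and 1.67 in XN1, and 1.18 and 0.846 in XN4. Hist1h2bc cells held 1.69 and 2.53 in XN1, against 3.51 and 5.34 in cells without, and 3.52 and 6.26 in CN4, against 5.99 and 8.48. The number of genes captured at equal reads differed little between these cells, with medians of 1781 and 1815 for Hist1h2bc in XN1. Hist1h4i cells in CN4 held 3.06 S phase genes against 5.85 in cells without.

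**Figure D5:**
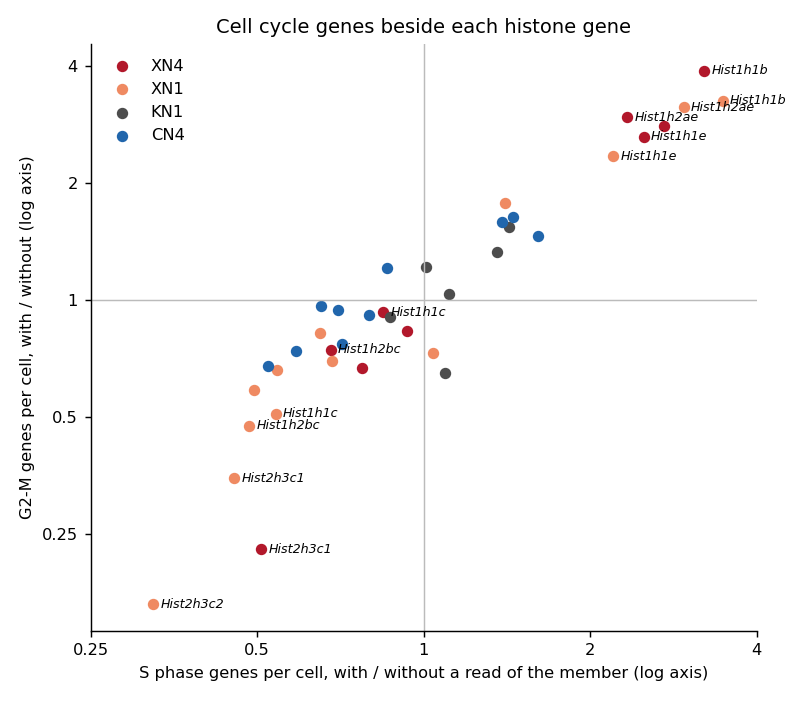
Each point is a member in a line, captured in at least 1% of thinned cells. The axes give, on log scales, the mean number of S phase genes (x) and G2-M genes (y) captured per cell with a read of the member, divided by that in cells without; selected members of XN4 and XN1 are named. Hist1h1b, Hist1h1e and Hist1h2ae lie at the upper right, and Hist2h3c1 and Hist2h3c2 at the lower left.

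Taken over any member, the picture differed by line. In XN4, 10 of 31 S phase genes and 21 of 35 G2-M genes were captured at least 1.5 times as often in cells with a member read, against 3.08% of all genes, and 1 and 0 were lower, against 1.52%. In XN1, 0 and 0 were higher, against 2.89%, and 11 and 1 were lower, against 2.17%. In KN1, 3 and 4 were higher, against 8.38%, and 1 and 0 lower, against 4.65%. In CN4, 0 and 0 were higher, against 1.54%, and 2 and 0 lower, against 1.75%. Within strata of genes captured, the counts of higher genes in XN4 were 6 and 8, and those of lower genes in XN1 were 1 and 0. The share of all genes was not taken within strata, so these counts cannot be set against it.

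Some pairs of members were found in the same cells more often than the product of their shares. Among 3384 XN4 cells, Hist1h1b and Hist1h1e were captured together in 23 cells, 4.41 times the product of their shares. In XN1 they were together in 17 cells (5.67 times), in CN4 in 13 (2.62 times) and in KN1 in 5 (2.23 times). Hist1h1c and Hist1h2bc were together in 341 XN1 cells, 1.66 times the product, in 108 XN4 cells (2.17 times) and in 35 CN4 cells (2.01 times). Across the division, Hist1h2bc and Hist1h1b were together in 2 XN1 cells, 0.122 times the product, and at 0.849 times in XN4 and 0.428 times in CN4. For Hist1h1c and Hist1h1b the value was 0.401 in XN1, 0.802 in XN4, 0.940 in CN4 and, with 2 cells, 1.97 in KN1. The low values were thus clearest in XN1. In KN1 no cell held both Hist1h1c and Hist1h2bc, where the product of shares gave 0.506 cells. These values describe cells of 1 library each, and pairs of other genes were not set beside them.

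Other genes of the pathway were described with lists of their own. Of the replication-independent histone genes, 3 of 11 were at least 2-fold higher with Mki67 or Top2a in XN4, XN1 and CN4 each, and 1 of 11 in KN1, with none lower. The shares of all genes past this limit were 4.42% in XN4, 4.69% in XN1, 3.6% in CN4 and 4.1% in KN1. Cenpa, the histone H3 variant of centromeres, was 13.5 times as often captured in XN4, 10.4 times in XN1, 4.13 times in CN4 and 1.80 times in KN1. H3f3a and H3f3b, encoding H3.3, had ratios of 0.981 to 1.42, and H2afz, encoding H2A.Z, 1.26 to 2.36. The list summed to 3212 RPM in XN4, 3328 RPM in XN1, 2146 RPM in KN1 and 4520 RPM in CN4, so that each line held many times more of its reads than of the replication-dependent members. With capture of polyadenylated RNA, this does not compare total histone mRNA.

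Of the genes for the processing of histone mRNA ends, 1 of 11 was at least 2-fold higher with Mki67 or Top2a in XN4, 2 of 11 in XN1, 0 of 10 in KN1 and 0 of 11 in CN4, beside the same shares of all genes, and the lists were not tested against each other. Slbp, the stem-loop binding protein, ranged from 1.501 in CN4 to 2.19 in XN1. The exonuclease gene Eri1 had 2.27 in XN4, and Casp8ap2, a component of histone locus bodies, had 1.32 to 1.99. The cleavage factor gene Cpsf2 and the cap binding protein gene Ncbp1 had 1.09 to 1.44 and 1.04 to 1.17.

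Of the histone chaperone genes, 5 of 8 were at least 2-fold higher in XN4 and XN1 and 3 of 8 in KN1 and CN4, beside the same shares of all genes. Asf1b, which hands H3 and H4 to the assembly factors, had 19.03 in XN4, 10.4 in XN1, 5.42 in CN4 and 2.51 in KN1. Chaf1b, a subunit of chromatin assembly factor 1, had 7.66, 7.33, 2.12 and 1.18 in the same order. Nasp, a chaperone of H3 and H4, had 1.47 to 3.24, and Rbbp4 and Rbbp7 had 1.11 to 1.36. Of 31 S phase genes 30 were at least 2-fold higher in XN4 and XN1, 21 in CN4 and 6 in KN1, with Pcna at 2.89, 2.92, 1.59 and 2.42. Of 35 G2-M genes 35 were higher in XN4, XN1 and CN4 and 34 in KN1. The weaker ratios of Hist1h1b in KN1 and CN4 stood beside weaker ratios of both lists. The S phase medians were 1.63 in KN1 and 2.33 in CN4, against 4.37 in XN4 and 4.97 in XN1. The G2-M medians were 3.78 in KN1 and 9.84 in CN4, against 21.6 in XN4 and 15.5 in XN1. The reason was not tested.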

How the data were processed

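The deposited tables hold whole counts of reads, not of unique molecules, per gene and cell (BD Rhapsody WTA pipeline; build mm10, GRCm38). The authors also deposited natural log values for a subset of cells without ribosomal protein and mitochondrial genes (Seurat 4.3.0 per the labels), ln(1 + 10000 × reads / total), which gave whole reads for 100% of values within 0.01. How strand was counted is not given in the sources used here. Members and lists were chosen with earlier results of these data known. Cells were thinned to 3200 reads (3600 in tables of all reads), leaving out shallower cells; RPM pooled all cells. Genes in at least 1% of thinned cells entered counts. Shares have exact binomial intervals, levels and sums exact Poisson intervals and ratios log-scale intervals, all for counting error only. Copies made by PCR are not independent, so the Poisson intervals can be narrower than the counting error. No doublets were called. Stem-loops were searched by their consensus in GENCODE M21 transcripts. Named members were captured in at least 1% of cells of a line, led their family, or had the 3 highest or lowest ratios of a line; from other lists the 3 highest levels and, after their values were seen, Cenpa, Slbp, Eri1, Asf1b and Chaf1b. Python 3.11.15, NumPy 2.4.6, pandas 2.3.3 and SciPy 1.17.1 were used; ratios were tested on simulated data.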

Additional observations from a re-analysis of the deposited data

Results flagged for a closer look

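The share of cells with a read of any member, in cells with Mki67 or Top2a relative to cells with neither, differed in direction between the lines. The ratio was 1.23 in XN4 (1.13 to 1.34), 1.51 in KN1 (1.27 to 1.80) and 1.118 in CN4 (1.01 to 1.24), but 0.832 in XN1 (0.774 to 0.895). The difference between the lines was not tested, since each line is 1 library. In XN1 the ratios of Hist1h1c and Hist1h2bc, its best captured members, were 0.590 and 0.529, and in XN4, where Hist1h1c took 44.2% of member reads against 42.8% in XN1, they were 0.837 and 0.710.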

How the results depend on the processing

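No paired analysis was possible because each line is 1 library, and for the same reason no replicate could be left out. The libraries captured polyadenylated RNA, whereas most mRNAs of the members end in the stem-loop, so the levels are not those of total histone mRNA. Depth, the use of reads in place of molecules, 1 library per line, the markers of XN4 and the few genes per cell of KN1 also limit these values. Most members were captured in under 1% of cells. Of the values of single genes under an alternative, 500 stayed within the limit set for them (the counting interval, or 1.5 times for a count), 191 moved past it and 2 changed direction; of the line summaries 150 stayed and 95 moved, and the cause was not tested. Without thinning, the ratios of Hist1h1c and Hist1h2bc in XN4 turned to 1.14 and 1.07. With at least 2 reads, 5 ratios had no value, since no cell with neither gene held 2 reads.

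The summed level stayed in the order XN1, XN4, CN4, KN1 under each alternative that gave all 4. As a mean over cells it was 167 RPM in CN4, 385 in XN1 and 243 in XN4; over members listed in all 4 normalized tables, an alternative chosen after seeing the data, 142, 367 and 235. With reads capped at 10 it was 122 in KN1 and 237 in XN4, without the 5% of cells with the most reads 129 and 258, and in the table of all reads 383 in XN1.

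The percent of cells with any member, for CN4, KN1, XN1 and XN4, was 12.2, 8.86, 30.7 and 20.2 with at least 2 reads, 49.7, 15.5, 60.4 and 54.3 without thinning, and 20.8, 9.56, 36.6 and 25.0 at 1600 reads. In the tables of all reads it was 31.2, 51.2 and 32.9 for CN4, XN1 and XN4.

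The ratio for any member kept its side of 1 in each line, though in CN4 it came near 1. With another draw of reads it was 1.06 in CN4, and within strata of genes captured 1.30 in KN1. It was 1.48 in XN4 for cells with both genes, 1.01 in CN4 for Top2a alone, 1.27 in CN4 and 0.652 in XN1 with at least 2 reads, 1.24 in CN4, 1.83 in KN1, 0.938 in XN1 and 1.36 in XN4 without thinning, 1.25 in CN4 at 1600 reads, and 0.768 in XN1 without the deepest 5% of cells.

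Counts of members at least 2-fold higher that moved are given with the members tested and, in brackets, the share of all genes. With Mki67 alone KN1 had 0 of 6 (2.36%). With at least 2 reads CN4 had 1 of 3 (4.88%), XN1 0 of 2 (6.0%) and XN4 1 of 4 (4.21%). Without thinning CN4 had 5 of 13 (5.39%). In the table of all reads XN4 had 2 of 7 (4.49%). At 1600 reads KN1 had 1 of 3 (3.34%) and XN4 2 of 5 (4.74%). Without the deepest 5% of cells KN1 had 1 of 6 (3.64%) and XN4 2 of 7 (4.36%). Within strata of genes captured KN1 had 1 of 6 (1.95%). Counts of members at least 2-fold lower moved as well, given in the same way. For cells with both genes CN4 had 1 of 10 (2.38%), KN1 1 of 6 (1.04%) and XN1 6 of 13 (4.81%). For Top2a alone KN1 had 1 of 6 (0.348%) and XN4 2 of 9 (2.06%). With another draw of reads CN4 had 1 of 11 (1.06%) and XN4 0 of 8 (1.81%). At 1600 reads CN4 had 1 of 7 (1.08%) and XN4 0 of 5 (1.82%). With at least 2 reads XN4 had 0 of 4 (3.9%). Without the deepest 5% of cells CN4 had 1 of 10 (1.01%) and XN4 2 of 7 (1.6%). Counts this small moved with the draw alone.

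Between lines, with no filter on level, members at least 2-fold higher were 6 in KN1 over CN4, 6 in XN1 over CN4, 4 in XN4 over CN4 and 1 in XN4 over XN1, and lower 3 in XN1 under CN4, 4 in XN4 under CN4, 3 in XN4 under KN1 and 9 in XN4 under XN1. By thinned capture, 0 were higher in KN1 than in CN4 and 0 lower in XN1 than in KN1. In the tables of all reads 1 was lower in XN4 than in XN1. The share of all genes past 2-fold was not taken under these settings or without the filter, so the counts cannot be set against it.

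With at least 2 reads of a member, the S phase ratio was 0.808 in CN4, 0.637 in XN1 and 1.21 in XN4 and the G2-M ratio 1.06 in KN1 and 0.598 in XN1. S phase genes higher were then 1 in KN1 and 6 in XN4, and lower 7 in CN4, 2 in KN1, 19 in XN1 and 0 in XN4; G2-M genes higher were 1 in KN1 and 8 in XN4, and lower 1 in KN1 and 28 in XN1. Within strata of genes captured, the S phase ratio was 1.03 in KN1 and 0.834 in XN1 and the G2-M ratio 1.05 in KN1; S phase genes higher were 0 in KN1 and 6 in XN4, and lower 1 in CN4 and 1 in XN1; G2-M genes higher were 0 in KN1 and 8 in XN4, and lower 0 in XN1.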
